A study of Mus musculus with 8 samples.

Results

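Gluconeogenesis and insulin-responsive fasting genes of mouse liver are described here by 10 transcripts: Pck1, G6pc, Fbp1, Pcx, Slc37a4, Ppargc1a, Foxo1, Creb3l3, Irs2 and Igfbp1. The genes were taken by name. A gene was read from the probe set (a group of probes for 1 transcript) that the platform annotation pairs with its symbol alone, and the brightest over the 8 arrays was used where there was more than 1. All 10 were measured, among 19540 genes with a symbol of their own, and Ppargc1a was the 1 gene of the 10 with more than 1 probe set. The samples were 4 wild-type livers (WT) and 4 livers labelled HNF6KO, each given by the labels as liver of a C57B/6 male, aged 12 weeks, on chow and a normal light cycle, with no treatment, taken at ZT10 (10 h after lights on, 5 pm). HNF6 is a homeodomain transcription factor of hepatocytes and bile duct cells, encoded by Onecut1. The labels do not say how HNF6 was removed, in which cells, or whether each array came from a separate animal, so the p-values below measure the spread between these samples. When the animals last ate is not given either, and in mice the late light phase is a time of low food intake.

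In fasting, the liver makes glucose from lactate, glycerol and amino acids. Pyruvate carboxylase and PEPCK turn pyruvate into phosphoenolpyruvate, fructose-1,6-bisphosphatase reverses a key step of glycolysis, and glucose-6-phosphatase with its transporter releases free glucose. Glucagon, through cAMP and CREB, and glucocorticoids raise the transcription of these genes, while insulin, through IRS2 and AKT, shuts FOXO1 out of the nucleus and lowers it. Igfbp1 and Irs2 belong to the same FOXO1 programme and are widely used as readouts of hepatic insulin action. HNF6 has been described as a factor that binds the G6pc promoter in cultured liver cells.

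The promoters of Pck1, G6pc and Igfbp1 are shown because they are the textbook cAMP- and insulin-responsive promoters of the group. Each is the 250 bases before the RefSeq start on assembly GRCm38.p6, read 5′ to 3′ along the gene, and capitals mark a match to a searched motif on either strand, with a match on the minus strand appearing as its reverse complement. Pck1 lies at chr2:173152823-173153072, G6pc at chr11:101367466-101367715 and Igfbp1 at chr11:7197537-7197786, all on the plus strand.
Pck1 promoter: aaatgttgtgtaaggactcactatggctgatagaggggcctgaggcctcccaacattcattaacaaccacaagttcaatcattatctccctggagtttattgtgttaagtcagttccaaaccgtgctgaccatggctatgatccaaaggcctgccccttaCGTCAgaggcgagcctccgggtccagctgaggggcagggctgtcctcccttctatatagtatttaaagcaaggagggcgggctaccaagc
G6pc promoter: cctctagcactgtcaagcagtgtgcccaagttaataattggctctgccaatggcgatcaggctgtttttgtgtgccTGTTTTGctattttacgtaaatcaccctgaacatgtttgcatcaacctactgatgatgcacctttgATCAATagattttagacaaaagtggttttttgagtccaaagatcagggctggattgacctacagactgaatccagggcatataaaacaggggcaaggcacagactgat
Igfbp1 promoter: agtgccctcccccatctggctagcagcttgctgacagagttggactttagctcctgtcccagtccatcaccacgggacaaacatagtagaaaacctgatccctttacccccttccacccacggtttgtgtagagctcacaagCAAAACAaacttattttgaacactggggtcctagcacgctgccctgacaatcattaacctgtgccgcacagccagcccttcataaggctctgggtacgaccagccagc

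The capitals in the Pck1 promoter are TGACG, the core of the cAMP response element, read on the minus strand at -90 to -86 from the start. In the G6pc promoter they are the forkhead (FOXO and FOXA) motif TGTTTTG at -174 to -168 and the HNF6 core ATTGAT, on the minus strand, at -108 to -103. The Igfbp1 promoter holds TGTTTTG on the minus strand at -108 to -102, inside its well-known insulin response element. Over 32851 such promoters in the reference table, TGACG was present in 17.8%, TGTTTTG in 5.56% and ATTGAT in 6.72%. The other motifs searched were the HNF6 core ATCGAT, in 0.728% of promoters, the full cAMP response element TGACGTCA, in 1.55%, and the forkhead motif TGTTTAC, in 3.17%. These 3 were in no promoter of the 10 genes. TGACG overlaps TGACGTCA by construction. Of the 10 genes, G6pc alone held an HNF6 core in these windows, TGTTTTG was also found at Irs2 and Creb3l3, and TGACG also at Slc37a4, Ppargc1a and Creb3l3. Pcx, Slc37a4 and Creb3l3 had more than 1 start and so more than 1 window, while the shares above are per promoter. Both Creb3l3 matches lay in 1 window, at a start inside the gene, and the window before the outermost start held none. The single Ppargc1a window, chr5:51567726-51567975, also lay inside the gene, which spans chr5:51454249-52115853. Of the Slc37a4 windows, 2 overlap and share a match, and the last held none. A match is a run of letters and not a measured binding site.

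Between HNF6KO and WT livers, 0 of the 10 genes passed the test. HNF6KO was compared with WT by limma over all genes, and the call was a Benjamini-Hochberg adjusted p under 0.05. The adjusted p of the 10 genes ran from 0.538 to 0.996, where 0.399% of all genes passed. At an unadjusted p of 0.05 the count was also 0 of 10, against 9.51% of all genes. The groups overlapped for each of the 10, and 5.67% of all genes had their 4 HNF6KO arrays on one side of the 4 WT arrays. At shares this low, a count of 0 of 10 does not set these genes apart from all genes. The median log2 change, HNF6KO minus WT, was -0.01 for the 10 genes and -0.01 for all genes, with 5 of the 10 above 0 and 5 below. For 4 genes (Pck1, Fbp1, Pcx and Creb3l3) the 95% interval of the difference lay within 1.25-fold either way, and for Foxo1 within 1.5-fold. The intervals of G6pc, Slc37a4, Ppargc1a, Irs2 and Igfbp1 reached further and do not exclude larger differences. The intervals are per gene, with no adjustment for their number.

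**Figure D1:**
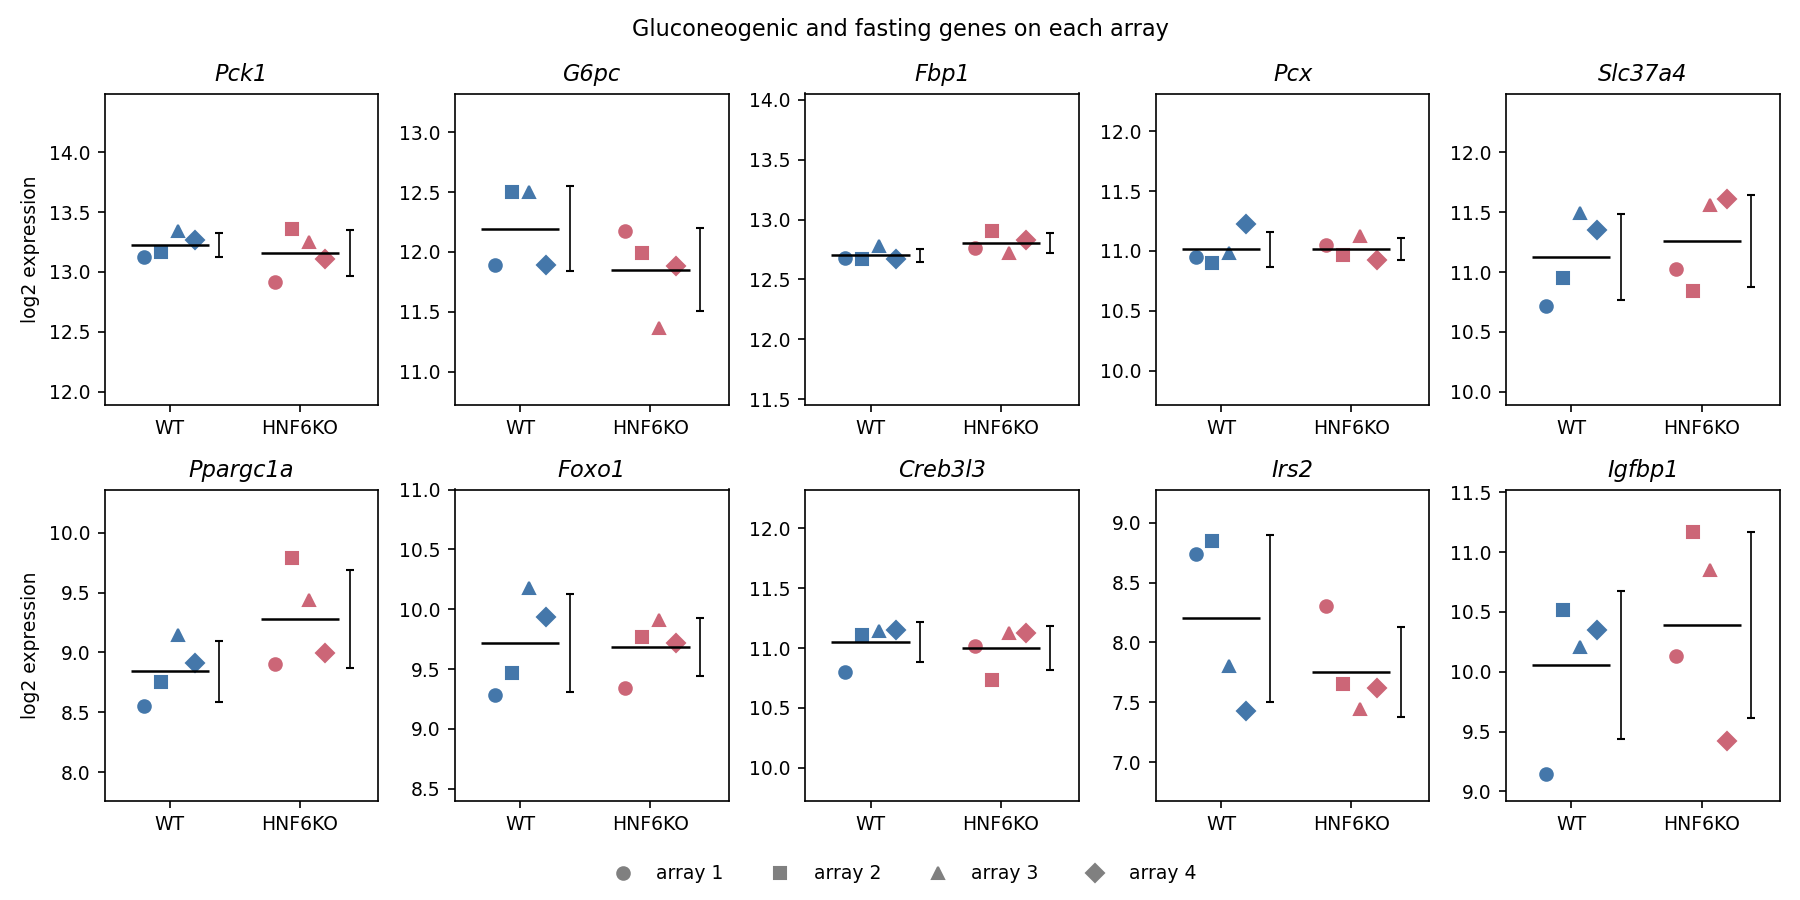
Log2 expression of each of the 10 genes (y axis, log2 units, every panel spanning the same height) on the 4 WT and the 4 HNF6KO arrays; a marker shape stands for an array number, the horizontal line is the group mean and the bar beside it 1 SD either way. The groups overlap in every panel, and the points of Irs2 and Igfbp1 spread the most.

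Onecut1 itself, which checks the labels, fell. It averaged 10.25 in WT (SD 0.30, n = 4) and 8.93 in HNF6KO (SD 0.31, n = 4). That is a difference of -1.32 ± 0.18 on the log2 scale (SE; limma, adjusted p = 0.0273), where 0.241% of all genes passed downward. The ratio of HNF6KO to WT was 0.401, with a 95% interval from 0.303 to 0.533. The signal was lowered, and the HNF6KO mean still lay above the median gene at 6.96. Whether that signal stands for remaining transcript was not tested. Between the genotypes the difference was -0.83 on arrays 1 and 2 and -1.80 on arrays 3 and 4. This call did not hold without WT array 1, 3 or 4 or HNF6KO array 3 or 4 (adjusted p from 0.0633 to 0.0954), while the log2 change in those 5 fits stayed between -1.34 and -1.23. Nor did it hold within arrays 1 and 2 (limma, adjusted p = 0.171). Without both HNF6KO arrays 3 and 4 the log2 change was -1.06 and did not pass either (limma, adjusted p = 0.0983).

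Values of single arrays are log2 expression, given in the order of array numbers 1 to 4. Pck1 (Entrez 18534) encodes the cytosolic PEPCK, the classic control point of gluconeogenesis. It read 13.13, 13.16, 13.34 and 13.27 in WT and 12.91, 13.35, 13.25 and 13.11 in HNF6KO. HNF6KO array 1 lay lowest and HNF6KO array 2 highest of all 8, with the WT arrays between them. HNF6KO minus WT came to -0.07 ± 0.10 (SE; limma, adjusted p = 0.895), a ratio of HNF6KO to WT of 0.954 with a 95% interval from 0.820 to 1.11. Pck1 gave one of the brightest signals of the table, close to its upper end of 14.1. Whether differences are compressed there was not tested.

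Pcx (Entrez 18563) encodes pyruvate carboxylase, which supplies oxaloacetate to PEPCK. It read 10.95, 10.90, 10.98 and 11.23 in WT and 11.05, 10.97, 11.13 and 10.92 in HNF6KO. All 4 HNF6KO values lay inside the WT range. Its log2 change was 0.0030 ± 0.081 (SE, adjusted p = 0.996 by limma), the smallest of the 10, and the interval of the ratio ran from 0.883 to 1.14.

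Fbp1 (Entrez 14121) encodes the liver fructose-1,6-bisphosphatase. The WT arrays read 12.68, 12.68, 12.78 and 12.67, and the HNF6KO arrays 12.76, 12.91, 12.72 and 12.83. All 4 HNF6KO arrays lay above the WT mean of 12.70, but 2 of them fell within the WT range because WT array 3 was high. The difference of 0.11 ± 0.06 (SE) did not pass (limma, adjusted p = 0.614), and the interval of the ratio ran from 0.986 to 1.17.

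G6pc (Entrez 14377) encodes the catalytic subunit of glucose-6-phosphatase, which frees glucose from glucose-6-phosphate. It read 11.89, 12.50, 12.50 and 11.89 in WT and 12.18, 11.99, 11.36 and 11.88 in HNF6KO. WT arrays fell into a high and a low pair, all 4 HNF6KO arrays lay below the WT mean of 12.20, and HNF6KO array 3 was the lowest of the 8. On the log2 scale the change was -0.34 ± 0.21 (SE; limma, adjusted p = 0.676), or a ratio of 0.789 with an interval from 0.571 to 1.09. Without HNF6KO array 3 it was -0.18 (adjusted p = 0.938 in limma).

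Slc37a4 (Entrez 14385) encodes the transporter that carries glucose-6-phosphate into the endoplasmic reticulum, to glucose-6-phosphatase. Its values were 10.72, 10.95, 11.49 and 11.35 in WT and 11.02, 10.84, 11.56 and 11.61 in HNF6KO. In both groups arrays 3 and 4 were higher than arrays 1 and 2, and the groups overlapped over most of their range. Between the groups it differed by 0.13 ± 0.22 (SE; limma, adjusted p = 0.915), with an interval of the ratio from 0.780 to 1.54.

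**Figure D2:**
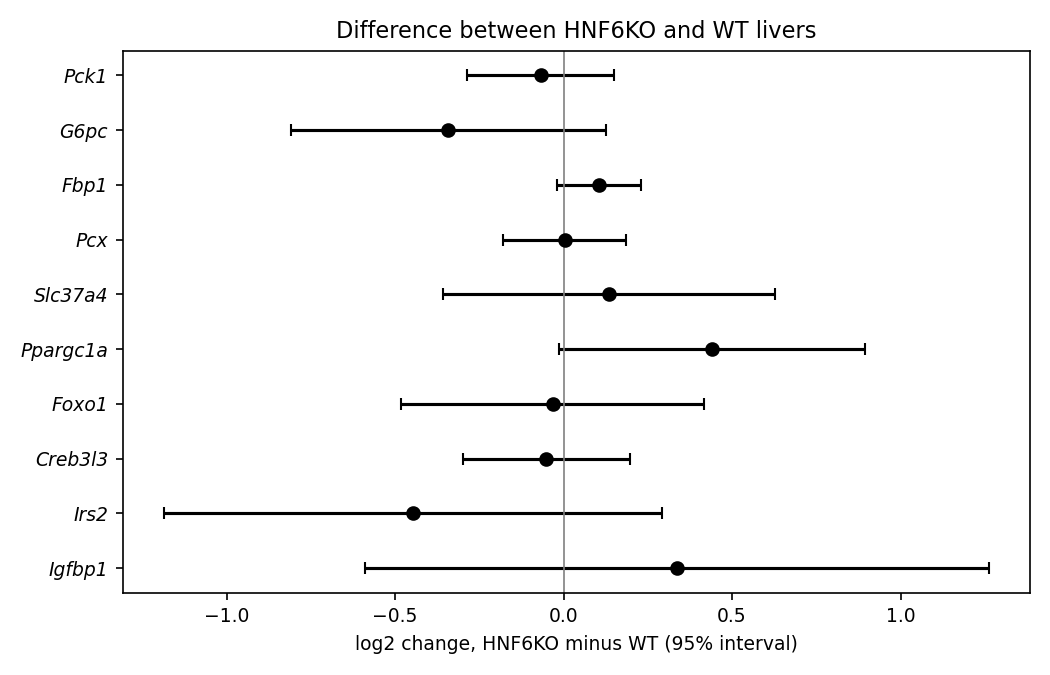
Log2 change, HNF6KO minus WT (x axis), of each gene (y axis) from the limma fit on 4 arrays a group; points are estimates and bars the 95% interval, without adjustment for the number of genes. Every bar crosses 0; Fbp1 has the narrowest, from -0.02 to 0.23, and Igfbp1 the widest, from -0.59 to 1.26.

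Ppargc1a (Entrez 19017) encodes PGC-1α, a coactivator that fasting and glucagon induce and that acts with FOXO1 and HNF4α on the glucose output genes. Its brighter probe set read 8.55, 8.76, 9.15 and 8.91 in WT and 8.90, 9.79, 9.44 and 8.999 in HNF6KO. All 4 HNF6KO arrays lay above the WT mean of 8.84, and 2 of them, arrays 2 and 3, lay above every WT array. The log2 change was 0.44 ± 0.20 (SE), a ratio of 1.36 with an interval from 0.991 to 1.86. This was the lowest adjusted p of the 10 (0.538 in limma) and did not pass. Without HNF6KO array 2 the log2 change was 0.27. The second, dimmer probe set read 5.66, 5.74, 6.20 and 6.04 in WT and 5.79, 7.29, 6.61 and 6.19 in HNF6KO. It placed the arrays of each group in the same order and had a log2 change of 0.56 ± 0.28 (SE; limma, adjusted p = 0.588 over all probe sets). Both probe sets draw on the same RNA and are no separate evidence.

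Foxo1 (Entrez 56458) encodes the forkhead factor that insulin restrains. It read 9.29, 9.47, 10.18 and 9.93 in WT and 9.34, 9.77, 9.91 and 9.72 in HNF6KO. All 4 HNF6KO values lay within the WT range, and array 1 was the lowest in each group. Its log2 change was -0.03 ± 0.20 (SE; limma, adjusted p = 0.982), with an interval of the ratio from 0.716 to 1.33. FOXO1 is controlled chiefly by phosphorylation and location, which transcript levels do not show.

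Creb3l3 (Entrez 208677) encodes CREBH, a membrane-bound factor of the endoplasmic reticulum that is released in fasting. The transcript read 10.80, 11.11, 11.14 and 11.15 in WT and 11.02, 10.73, 11.12 and 11.12 in HNF6KO. WT array 1 and HNF6KO array 2 were low, and the other 6 arrays lay close together. The genotypes differed by -0.05 ± 0.11 (SE; limma, adjusted p = 0.946), with an interval of the ratio from 0.813 to 1.15.

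Irs2 (Entrez 384783) encodes the insulin receptor substrate that fasting raises in liver and insulin lowers. It read 8.74, 8.84, 7.80 and 7.43 in WT and 8.30, 7.65, 7.45 and 7.62 in HNF6KO. WT arrays 1 and 2 were the highest of the 8, and all 4 HNF6KO values lay within the WT range. The log2 change was -0.45 ± 0.33 (SE; limma, adjusted p = 0.750), a ratio of 0.734 with an interval from 0.439 to 1.22. The estimate came mainly from arrays 1 and 2, with a difference of -0.81 there and of -0.08 on arrays 3 and 4. It was -0.23 without WT array 2, -0.27 without WT array 1 and -0.71 without WT array 4.

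Igfbp1 (Entrez 16006) encodes a secreted protein that binds insulin-like growth factors and whose transcript falls quickly after a meal. Its values were 9.14, 10.52, 10.20 and 10.35 in WT and 10.13, 11.17, 10.85 and 9.42 in HNF6KO. WT array 1 was the lowest and HNF6KO array 2 the highest of the 8, with a range of 1.37 in WT and 1.75 in HNF6KO. HNF6KO minus WT was 0.34 ± 0.41 (SE; limma, adjusted p = 0.875), and the interval of the ratio, from 0.665 to 2.40, was the widest of the 10. Single arrays moved this estimate strongly: it was 0.033 without WT array 1, 0.078 without HNF6KO array 2 and 0.66 without HNF6KO array 4.

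The 10 genes differed more between arrays of 1 group than most genes did. The pooled SD within groups was 0.70 for Igfbp1, 0.56 for Irs2, 0.37 for Slc37a4, 0.35 for G6pc, 0.34 for Ppargc1a and 0.34 for Foxo1. The median of all genes was 0.10, and each of these 6 lay above the 96.5th percentile of all genes. Fbp1, at 0.07, was the 1 gene of the 10 below that median. Creb3l3 had an SD of 0.18, Pck1 of 0.15 and Pcx of 0.12. WT array 1 was the lowest WT array for 7 of the 10 genes, among them Pck1, Ppargc1a, Foxo1 and Igfbp1, and HNF6KO array 2 was the highest HNF6KO array for 4 (Pck1, Fbp1, Ppargc1a and Igfbp1). SD changes with signal level on such arrays, and these percentiles are a description only.

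For Slc37a4, Irs2 and Foxo1 part of that spread followed the array numbers. In WT, arrays 3 and 4 exceeded arrays 1 and 2 by 0.68 on the log2 scale for Foxo1 and by 0.59 for Slc37a4. In HNF6KO the same differences were 0.26 and 0.65. Irs2 went the other way, with -1.18 in WT and -0.45 in HNF6KO. The sign of this difference was the same in both groups for 7 of the 10 genes, and it was opposite for Fbp1, Ppargc1a and Igfbp1. The difference between the genotypes kept its sign within both pairs of array numbers for 7 genes and changed it for Pcx, Foxo1 and Igfbp1. Igfbp1 differed by 0.82 on arrays 1 and 2 but by -0.14 on arrays 3 and 4. The same values were 0.69 and 0.19 for Ppargc1a, and -0.11 and -0.57 for G6pc. None of these differences between pairs was tested. The labels name no hybridisation batch, and what the array numbers stand for is not given.

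With the array side (numbers 1 and 2 against 3 and 4) as a term in the fit, 0 of the 10 genes passed, where 1.25% of all genes did. The SE of Slc37a4 was 0.07 in that fit in place of 0.22 that of Irs2 0.18 in place of 0.33 and that of Foxo1 0.12 in place of 0.20, while the log2 changes stayed the same by construction. For Igfbp1, the gene with the most spread, the SE was 0.41 in both fits, and it hardly moved for Ppargc1a (0.20 in both), G6pc (0.19 in place of 0.21) and Fbp1 (0.06 in both). The adjusted p was 0.429 for Slc37a4, 0.315 for Irs2 and 0.361 for Ppargc1a.

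**Figure D3:**
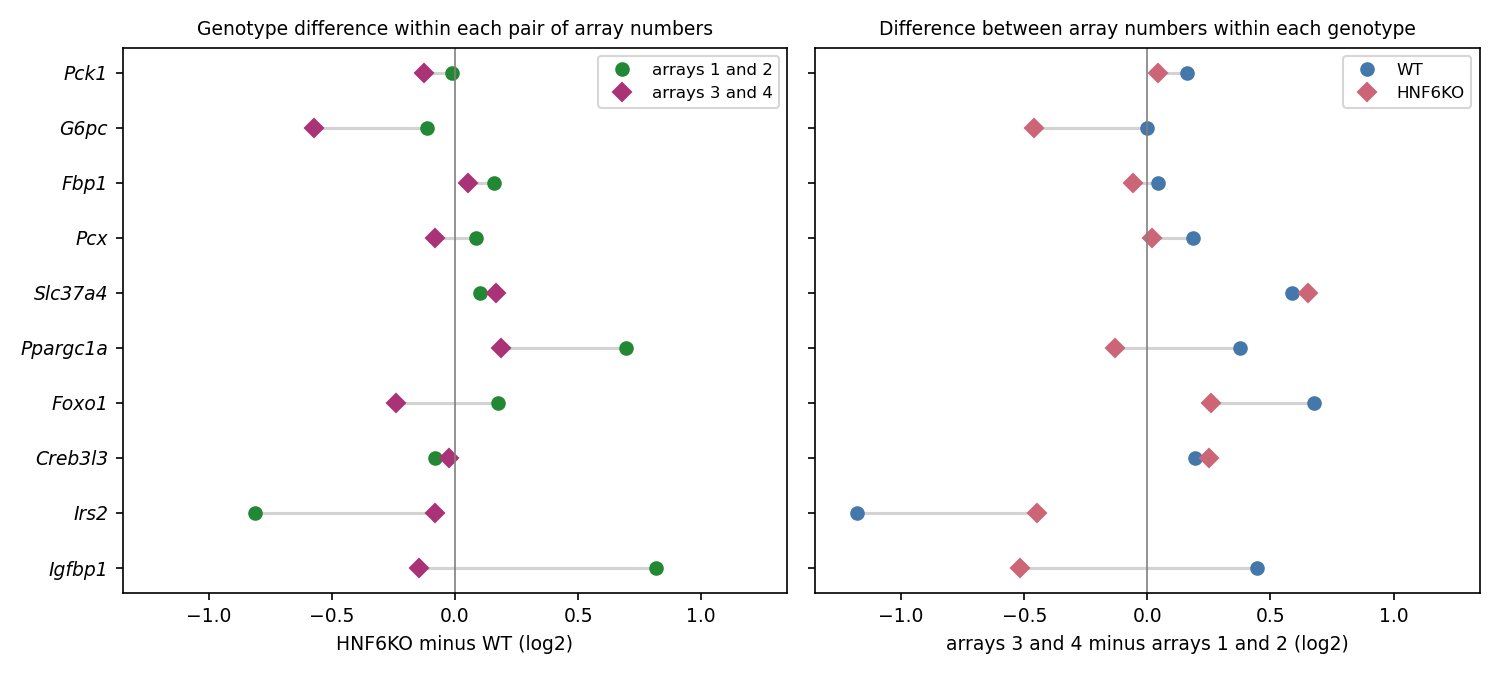
Left, the log2 difference HNF6KO minus WT of each gene (y axis) on arrays 1 and 2 (circles) and on arrays 3 and 4 (diamonds); right, the log2 difference of arrays 3 and 4 minus arrays 1 and 2 within WT (circles) and within HNF6KO (diamonds). Each point compares means of 2 arrays; Slc37a4 and Irs2 lie away from 0 on the same side for both groups on the right, and Igfbp1 lies on opposite sides of 0 in both panels.

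Markers of some other liver cells also moved with the array numbers. The mean log2 level of 8 Kupffer cell (liver macrophage) markers ran from 7.64 to 8.96 over the WT arrays and from 7.74 to 9.36 over the HNF6KO arrays. On arrays 1 to 4 this mean read 7.64, 8.54, 8.76 and 8.96 in WT and 8.26, 7.74, 9.36 and 9.10 in HNF6KO. In WT, array 1 stood lowest and array 2 lay near array 3. The mean was higher on arrays 3 and 4 than on arrays 1 and 2 by 0.77 in WT and 1.23 in HNF6KO. For 8 markers of sinusoidal endothelium these differences were 0.59 and 0.66, with levels from 8.41 to 9.19 in WT and from 8.44 to 9.33 in HNF6KO. For 8 stellate cell markers they were 0.37 and 0.24, but this list was split. Dcn differed by 0.89 in WT and 0.74 in HNF6KO, whereas Col1a1 differed by -0.0055 and -0.19 and Col3a1 by 0.012 and -0.22. The 6 measured blood cell markers, of 8 listed, averaged 6.68 to 6.75 over the WT arrays, 6.68 and 6.65 on HNF6KO arrays 1 and 2, and 6.39 and 6.40 on HNF6KO arrays 3 and 4. Among them Alas2, the haem synthesis enzyme of red cell precursors, had a log2 change of -0.98 ± 0.19 (SE; limma, adjusted p = 0.0925), with its groups apart. On HNF6KO arrays 3 and 4 Alas2 read 8.39 and 8.53, against a WT mean of 9.81. The other measured blood cell markers did not share this change, with log2 changes between -0.08 (Cd79a) and 0.04 (S100a8). The 6 measured hepatocyte markers, of 8 listed, lay between 13.68 and 13.72 in WT and between 13.69 and 13.78 in HNF6KO, so the tissue read as liver on each array. Markers of bile duct cells (5 of 7 measured, 6.04 to 6.13 over all arrays) and of fat and kidney (6 measured, 5.92 to 6.09), kidney being the other organ that makes glucose, lay below the median gene at 6.96, with 1 bile duct marker above it. In whole liver, fewer cells of a type and less RNA per cell cannot be told apart. The part of these cells in the values of Irs2, Slc37a4 and Foxo1 was not tested.

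Further genes of the pathway were read from 6 lists with 141 genes, of which 122 were measured, and 1 of these passed, Onecut1. In glucose output enzymes and substrate entry, 0 of 21 measured genes passed in limma, 4 were higher and 3 lower at an unadjusted p of 0.05, and the median log2 change was 0.04. Over all genes 4.30% were higher and 5.21% lower at that p, and the counts of the lists below stand beside the same shares. The lists were written with earlier results of these data known. Mpc1, a subunit of the mitochondrial pyruvate carrier that feeds pyruvate carboxylase, read 11.91, 11.77, 11.86 and 11.69 in WT and 12.22, 12.06, 12.17 and 12.17 in HNF6KO. Its groups did not overlap, and its log2 change of 0.35 ± 0.06 (SE) had an adjusted p of 0.0647 in limma. Gpd1, the glycerol-3-phosphate dehydrogenase through which glycerol enters the pathway, read 11.50, 11.86, 11.82 and 11.55 in WT and 11.00, 10.33, 10.95 and 11.18 in HNF6KO. Its groups were apart too, with a log2 change of -0.81 ± 0.17 (SE; limma, adjusted p = 0.128). The lactate dehydrogenase Ldha had a log2 change of -0.33 ± 0.08 and the alanine aminotransferase Gpt one of 0.24 ± 0.07 (SE; limma, adjusted p = 0.207 and 0.250).

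In the glucagon, cAMP and CREB arm, 0 of 22 measured genes passed in limma, with 0 higher and 3 lower at an unadjusted p of 0.05 and a median log2 change of -0.08. Those 3 were the nuclear receptor Nr4a2 (-0.22 ± 0.07), the coactivator Crebbp (-0.15 ± 0.05) and the CREB coactivator Crtc2 (-0.21 ± 0.07) (log2 change ± SE; limma, adjusted p 0.346 to 0.370). Nr4a2, at 5.83 in WT and 5.60 in HNF6KO, lay below the median gene at 6.96. Ppp1r3c, which targets a phosphatase to glycogen, had a log2 change of -1.08 ± 0.60 (SE; limma, adjusted p = 0.639).

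In the insulin receptor, AKT and FOXO arm, 0 of 20 measured genes passed in limma, with 1 higher and 1 lower at an unadjusted p of 0.05 and a median of -0.04. Grb14, an adaptor that inhibits the insulin receptor, read 10.27, 10.28, 10.04 and 10.05 in WT and 9.84, 9.50, 9.29 and 9.63 in HNF6KO. Its groups were apart, with a log2 change of -0.59 ± 0.12 (SE; limma, adjusted p = 0.0888). With the array side as a term Grb14 passed (adjusted p = 0.0221), as did Mpc1 (0.0378), Ldha (0.0406) and Thrsp (0.0246), in the same fit in which 1.25% of all genes passed. In the reported fit none of them did (limma, adjusted p = 0.0888, 0.0647, 0.207 and 0.307 in that order). The array side was chosen with earlier results of these data known, so these passes are a description only. Pik3cb, a catalytic subunit of phosphoinositide 3-kinase, had a log2 change of 0.30 ± 0.12, Gsk3a, a glycogen synthase kinase, one of -0.28 ± 0.14, and the AKT inhibitor Trib3 one of -0.19 ± 0.09 (SE; limma, adjusted p from 0.457 to 0.595).

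Among other genes raised by fasting, 0 of 21 measured passed in limma, with 1 higher and 2 lower at an unadjusted p of 0.05 and a median of -0.05. The sestrin Sesn3, a FOXO1 target, had a log2 change of 0.20 ± 0.08 and the stress gene Gadd45b one of 0.32 ± 0.16 (SE; limma, adjusted p = 0.434 and 0.566). Acot1 and Cyp4a14, targets of PPARα, had -1.05 ± 0.24 and -1.38 ± 0.53 (SE; limma, adjusted p = 0.150 and 0.444). Both have close relatives whose transcripts their probe sets can bind. At an unadjusted p of 0.05, 4.30% of all genes were higher and 5.21% lower. These lists were written with earlier results of these data known. Among genes raised by insulin and feeding, 0 of 13 measured passed in limma, with 3 higher and 0 lower at an unadjusted p of 0.05 and a median of 0.21, against -0.01 for all genes. Those 3 were the lipogenic genes Scd1 (1.08 ± 0.29), Thrsp (0.88 ± 0.27) and Elovl6 (0.48 ± 0.18) (log2 change ± SE; limma, adjusted p 0.239 to 0.427), and the fatty acid synthase Fasn had 0.61 ± 0.28 (adjusted p = 0.540).

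Among regulators of gluconeogenic promoters, 0 of 26 measured genes rose, 1 fell (Onecut1) and 25 did not pass. At an unadjusted p of 0.05, 0 were higher and 7 lower, Onecut1 included, where 5.21% of all genes were lower, and the median log2 change was -0.07, against -0.01 for all genes. The other 6, named after their values were seen, were the circadian repressor Nr1d1 (-0.76 ± 0.31), the forkhead factor Foxa1 (-0.45 ± 0.18), the coactivator Ppargc1b (-0.36 ± 0.12), the glucocorticoid-induced factor Klf9 (-0.35 ± 0.15), the Wnt effector Tcf7l2 (-0.34 ± 0.11) and the nuclear receptor Nr2f2 (-0.31 ± 0.13) (log2 change ± SE; limma, adjusted p from 0.331 to 0.512). With array quality weights 1.03% of all genes passed, and with the replicate number as a block 0.640%, and 0 of the 10 gluconeogenic and fasting genes passed in either fit.

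**Figure D4:**
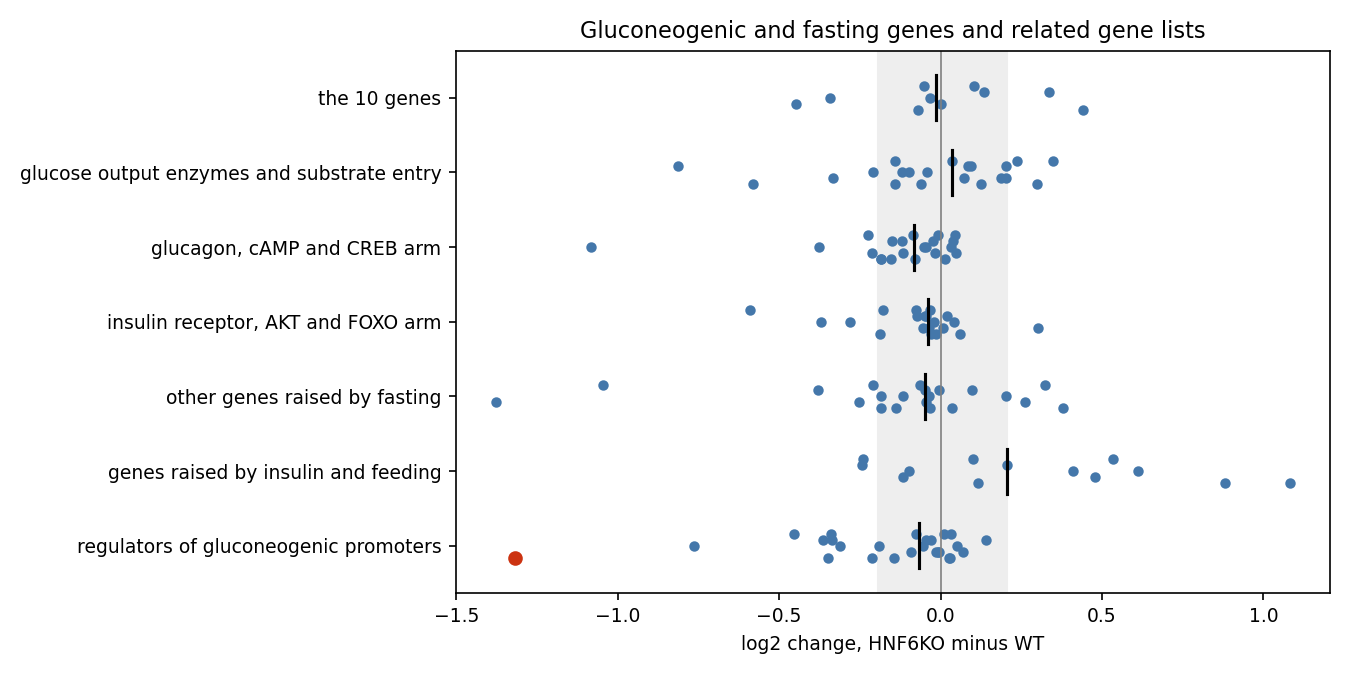
Log2 change, HNF6KO minus WT (x axis), of the 10 genes and of the measured genes of 6 related lists (y axis); each dot is a gene, black lines are list medians, the larger red dot passed an adjusted p of 0.05 and the grey band holds the middle 90% of all genes (-0.19 to 0.21). Onecut1 is the 1 red dot, and the median of the genes raised by insulin and feeding lies at the upper edge of the band. The lists were written with earlier results of these data known.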

How the data were processed

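The authors deposited a single table of values for 8 arrays of mouse liver total RNA, labelled with biotin by a whole-transcript kit per the labels' protocols. Its values lie between 3.69 and 14.1, array medians between 6.89 and 6.97, and they are read as log2 expression. The logarithm base and the authors' background correction, normalization and summarisation of these deposited log2 values: not given in the sources used here. No value was changed. Of 22725 probe sets, 21113 had 1 gene symbol, 43 several and 1569 none here, which gave 19540 genes (883 with more than 1 probe set). Genes were compared with lmFit and eBayes of limma 3.58.1 under R 4.3.3 (two-sided), adjusted by Benjamini-Hochberg over all genes, after a test of the step on simulated data. The number of arrays, 4 a group, and the spread between them limit the precision. Coordinates and promoter letters come from RefSeq (GRCm38.p6), whose table held promoters of all 10 genes.

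The 10 genes, the lists and the array side were chosen with earlier results of these data known. Named are the 10 genes, Onecut1, and from each list the genes past the threshold, or else the 4 with the smallest p. Alternatives were other normalizations, a filter at the 40th percentile, other variance models, array weights, other probe set choices, thresholds, the replicate number or array side as a term, subsets of arrays and each array left out.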

Additional observations from a re-analysis of the deposited data

Results flagged for a closer look

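In 2 of 20 groups of 4 arrays (10 genes in 2 genotypes) an array stood apart by Dixon's criterion, the gap to its nearest neighbour over the range of the group set against its 95% critical value for 4 samples; chance flags about 1 in 20 groups. WT array 3 read 12.78 for Fbp1, with the next at 12.68 and a ratio of 0.882. Without that array the log2 change of Fbp1 was 0.13 (limma, adjusted p = 0.642). WT array 1 read 10.80 for Creb3l3, with the next at 11.11 and a ratio of 0.874. Without it the log2 change of Creb3l3 was -0.13 (limma, adjusted p = 0.852).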

How the results depend on the processing

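The count of 0 of 10 genes past the threshold was the same under all 24 alternatives run, adjusted thresholds of 0.01 and 0.1 and an unadjusted 0.05 included, and 0 of 10 genes had groups apart after quantile normalization, median centring or cyclic loess. These other thresholds were applied to the reported fit only. With the array side as a term, Irs2 had an unadjusted p of 0.0389 (limma). Of 210 recomputed changes of single genes, 192 kept their direction and 18 reversed. The filter, the other variance model, the fit on every probe set, the replicate block and the array side left the log2 change unchanged by construction. Averaging probe sets did so for every gene but Ppargc1a. Such changes could not reverse, and they are counted among the 192. The reversals outside single left-out arrays were Foxo1 (0.13) and Creb3l3 (0.016) with array quality weights, Foxo1 (0.18) within arrays 1 and 2, Pcx (-0.081) and Igfbp1 (-0.14) within arrays 3 and 4, and Pcx (-0.0059) and Slc37a4 (-0.19) without HNF6KO arrays 3 and 4. With 1 array left out the log2 change ranged from -0.13 to 0.012 for Pck1, from -0.036 to 0.075 for Pcx, from -0.0025 to 0.27 for Slc37a4, from -0.18 to 0.12 for Foxo1 and from -0.13 to 0.038 for Creb3l3, and without a change of sign from 0.033 to 0.66 for Igfbp1, from -0.71 to -0.23 for Irs2, from 0.27 to 0.57 for Ppargc1a, from -0.45 to -0.18 for G6pc and from 0.071 to 0.13 for Fbp1. The cause was not tested. G6pc, Fbp1, Ppargc1a and Irs2 kept their sign under every alternative run. Of the pathway genes, 4 passed with array quality weights, 4 with the replicate block, 5 with the array side as a term, 0 without HNF6KO arrays 3 and 4, and from 0 to 2 with 1 array left out, against 1 in the reported fit. The labels do not say that a replicate number marks a shared litter, batch or day. The deviations of same-numbered arrays from their group means correlated at 0.44, 0.17, 0.51 and 0.02 across genes for numbers 1 to 4, above 0.1 for 3 of the 4 pairs, and WT arrays 2 and 4 correlated best with another number, so pairing was not established. With the replicate block 125 genes passed in place of 78, and 0 of the 10 genes. The small number of arrays and the spread between them limit the precision, and compression of bright signals was not tested.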
